A study of Ovis aries with 6 samples.

Results

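On the sheep array 3 HOX genes could be named here with 5 probes, HOXA5 with 2 probes, HOXA7 with 2 and HOXC6 with 1. Most probes carry no name here, so other HOX genes may be on the array. The genes were taken by name, HOXC6 through the accession its probe carries in the sheep RefSeq gene table (assembly ARS-UI_Ramb_v3.0) and HOXA5 and HOXA7 through the gene names in the study's own supplementary tables. They are 3 of the 478 genes, and 5 of the 15008 probes, that could be looked at by name or signal here. Those supplementary tables list probes selected for a difference in these same skin samples. The direction, size, calls and ranks of the HOXA probes, and their contrast with HOXC6, are thus not independent evidence. The skin came from Aohan fine wool sheep aged 16 months, 1 ram and 2 ewes that shared their father. Full-thickness skin of about 1 cm2 was cut from the wool-bearing body side and from the groin, which bears no wool, and every animal gave both areas. Neither area received a treatment. Each area has 3 one-colour arrays (Cy3), and no source used here says which groin array and which body side array come from 1 animal. The aim of the study was to compare gene expression between these kinds of skin in relation to wool growth.

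HOX genes encode homeodomain transcription factors that lie in clusters and give cells along the body axis their positional identity. Within a cluster the order of the genes follows the order of their expression from head to tail, and skin fibroblasts of adult animals keep site-specific combinations of active HOX genes. Some HOXC genes also act in the hair follicle itself, where HOXC13 regulates hair keratins. In the RefSeq table HOXA5 and HOXA7 lie in the HOXA cluster with HOXA6 between them, and HOXC6 lies in the HOXC cluster between HOXC5 and HOXC8. The annotated span of HOXA5 overlaps those of HOXA3 and HOXA4, and probe sequences were not used here, so that these probes measure HOXA5 alone rests on the names given to them.

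The scanner gave a background-corrected signal for each spot. Between 74.1% and 76.0% of the spots on the body side arrays were well above background, against 79.6% and 79.9% on groin replicates 2 and 3 and 92.3% on groin replicate 1, and no spot was saturated. Replicate 1 stood apart from the others in each area. Over 7132 probes with a normalized signal of at least 100 on every array, groin replicates 2 and 3 differed with an SD per array of 0.0662 on the log2 scale, while repeated spots of 1 probe on 1 array had a median SD of 0.0612 to 0.0817. Groin replicate 1 differed from them with an SD of 0.236 and 0.243. Body side replicates 2 and 3 differed by 0.0922, and body side replicate 1 differed from them by 0.341 and 0.34. Groin replicates 2 and 3 thus differed by no more than the noise between spots. The study describes its arrays as repeats from separate sheep, and this closeness does not show that they share an animal or an RNA sample. As a caution they were counted as 1 sample in each mean and SD of groin skin below, which leaves n = 2. Body side replicates 2 and 3, which differed by slightly more than that noise, were kept as 2 samples. By another measure, 2.34% of spots differed by more than 2 combined scanner errors between groin replicates 2 and 3. The share was 4.3% between body side replicates 2 and 3. Both shares were small, so treating the pairs differently was a choice. The means and SDs of the areas below are thus not formed alike. Counted as 3 samples, the groin arrays gave 7.04 ± 0.10 and 7.16 ± 0.19 (log2, SD, n = 3) for the HOXA5 probes, 8.50 ± 0.70 and 8.68 ± 0.72 for the HOXA7 probes and 12.54 ± 0.15 for HOXC6. The limma fit planned here, which is not the authors' own method, used all 6 arrays. Its values are given together with those of a fit in which the close arrays were averaged. The p-values measure the spread between these arrays, which may be technical in part.

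HOXA5, which patterns the neck and upper trunk, was lower on every body side array than on every groin array. The first HOXA5 probe (A_70_P017041) had scanner signals of 181, 173 and 172 in groin skin (replicates 1 to 3), with scanner error estimates of 18.2, 17.4 and 17.3. In body side skin, again for replicates 1 to 3, its signal was 12.3, 20.9 and 25.5, with errors of 2.83, 2.8 and 3.66. The groin arrays sat close together, the body side arrays were far below them, and body side replicate 1 was the lowest and was not well above background. The second HOXA5 probe (A_70_P017042) gave 201, 202 and 165 in groin skin, against 11.8, 25.5 and 28.9 in body side skin. It showed the same order of areas, again with body side replicate 1 lowest and not well above background.

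After quantile normalization the first HOXA5 probe had a level of 7.07 ± 0.12 (log2, SD, n = 2) in groin skin and 4.69 ± 0.64 (SD, n = 3) in body side skin. In the fit over 6 arrays its log2 fold change, body side minus groin, was -2.35 (standard error, SE, 0.33, 95% interval -3.15 to -1.56, limma adjusted p = 0.0194). The second probe had 7.20 ± 0.17 (SD, n = 2) and 4.83 ± 0.81 (SD, n = 3), with a log2 fold change of -2.33 (SE 0.41, limma adjusted p = 0.026). As 1 body side array did not measure the probes well above background, the difference between the means of these arrays is a bound. By those means HOXA5 in body side skin was at least 5.04-fold lower with the first probe and at least 4.90-fold lower with the second. The bound covers only the background limit and not the spread between arrays. The 95% intervals of the fit reached smaller log2 differences, -1.56 for the first probe and -1.34 for the second. The bound sets each body side array at the higher of its own value and the lowest signal well above background on that array.

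HOXA7, which patterns the trunk and is also expressed in keratinocytes, was well above background on all 6 arrays. The first HOXA7 probe (A_70_P017046) had scanner signals of 737, 338 and 382 in groin skin, against 84.3, 52.5 and 59.7 in body side skin (replicates 1 to 3 of each). The second (A_70_P017047) had 848, 394 and 403, against 59.9, 50.7 and 60.6, in the same order. Groin replicate 1 was the highest array for both probes, the body side arrays lay close together, and the areas did not overlap.

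The normalized HOXA7 levels were 8.71 ± 0.86 (log2, SD, n = 2) in groin skin and 6.41 ± 0.12 (SD, n = 3) in body side skin for the first probe. The log2 fold change of that probe over 6 arrays was -2.10 (SE 0.36, 95% interval -2.96 to -1.23, limma adjusted p = 0.025), which is 4.28-fold lower in body side skin. For the second probe the levels were 8.89 ± 0.89 (SD, n = 2) and 6.25 ± 0.14 (SD, n = 3). Its log2 fold change was -2.43 (SE 0.37, 95% interval -3.32 to -1.54, limma adjusted p = 0.0217), or 5.39-fold lower.

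**Figure D1:**
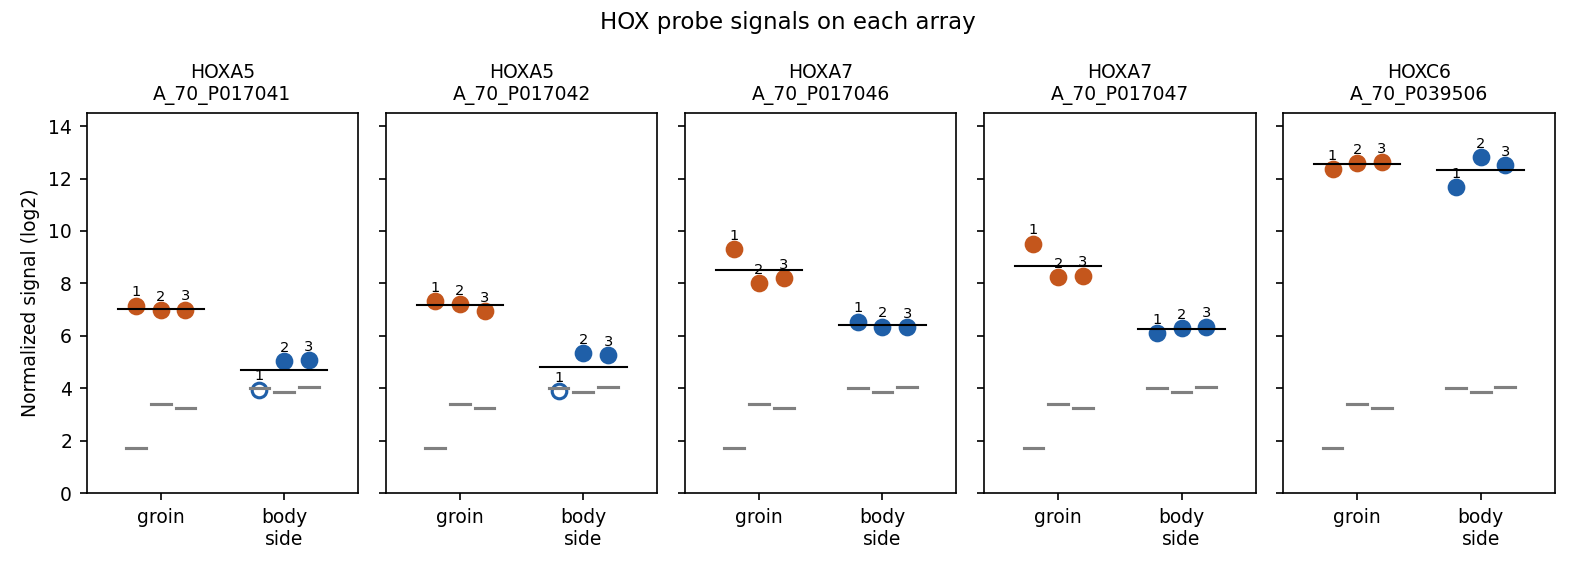
Normalized log2 signal (vertical axis) of the 5 HOX probes on each array, in groin skin (orange) and body side skin (blue), with the replicate number above each point. Filled points are well above background and open points are not, black lines are means over the 3 arrays of an area, and grey ticks mark the lowest signal well above background on that array. The HOXA5 and HOXA7 points of groin skin all lie above those of body side skin, and the HOXC6 points overlap.

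Over the 6 arrays, all 4 HOXA probes passed the call rule of an adjusted p under 0.05 and a fold change of at least 2, all lower in body side skin. These probes were named from tables selected for a difference in the same samples, so their calls were favoured in advance. The shares over all probes that follow are background and do not measure enrichment. Of the 13929 probes tested, 8.4% were called in either direction, 4.87% were called lower and 3.53% higher in body side skin, and 1.48% were called lower by at least 4-fold, as the 4 HOXA probes were. Every groin array exceeded every body side array for the 4 HOXA probes, as it did for 17.9% of the 13752 tested probes with a value on all arrays, while 25.9% were separated in the opposite direction. With groin replicates 2 and 3 averaged, no HOX probe was called. The log2 fold changes were then -2.38 and -2.37 for HOXA5 (limma adjusted p = 0.0979 and 0.105) and -2.30 and -2.64 for HOXA7 (limma adjusted p = 0.0979 and 0.0947), and 13 probes of the whole array were called. With replicates 2 and 3 averaged in both areas, the 4 HOXA probes lay between -2.68 and -2.27 with adjusted p from 0.325 to 0.326 (limma), and 0 probes of the array were called, while 1991 had an unadjusted p under 0.05. The size of the HOXA differences changed little, although averaging arrays this alike is a weak check of that size. The calls were lost when the close arrays were averaged. They were also lost with slide row or replicate number as a block, with all 6 arrays counted separately. In bulk skin, fewer cells that express a gene and less RNA per cell cannot be told apart.

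Both probes of a gene gave the same order of areas. They target 1 gene and are not replicates. On a given array the first HOXA5 probe lay between 0.286 below and 0.0556 above the second on the log2 scale. The first HOXA7 probe lay between 0.225 below and 0.444 above the second, a range wider than the SD of either probe among the body side arrays. The log2 fold changes of both HOXA5 probes differed by -0.0245, and those of the HOXA7 probes by 0.334, both less than the standard error of either probe.

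HOXC6, a HOXC cluster gene that patterns the thoracic region, showed no such gap between areas. Its probe (A_70_P039506) had scanner signals of 5540, 6340 and 6530 in groin skin, against 2910, 7020 and 6000 in body side skin (replicates 1 to 3 of each). Body side replicate 1 was the lowest array, body side replicate 2 was the highest, and the areas overlapped. The normalized level was 12.5 ± 0.18 (log2, SD, n = 2) in groin skin and 12.33 ± 0.60 (SD, n = 3) in body side skin. The log2 fold change over 6 arrays was -0.21 (SE 0.32, 95% interval -0.98 to 0.56, limma adjusted p = 0.651). With groin replicates 2 and 3 averaged it was -0.17 (SE 0.39, limma adjusted p = 0.795). Its sign depended on the processing, as scaling to the 75th percentile gave 0.14 and leaving out body side replicate 1 gave 0.13. A difference under 1.5-fold in the fit over 6 arrays was common, as 58.9% of the tested probes had one.

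**Figure D2:**
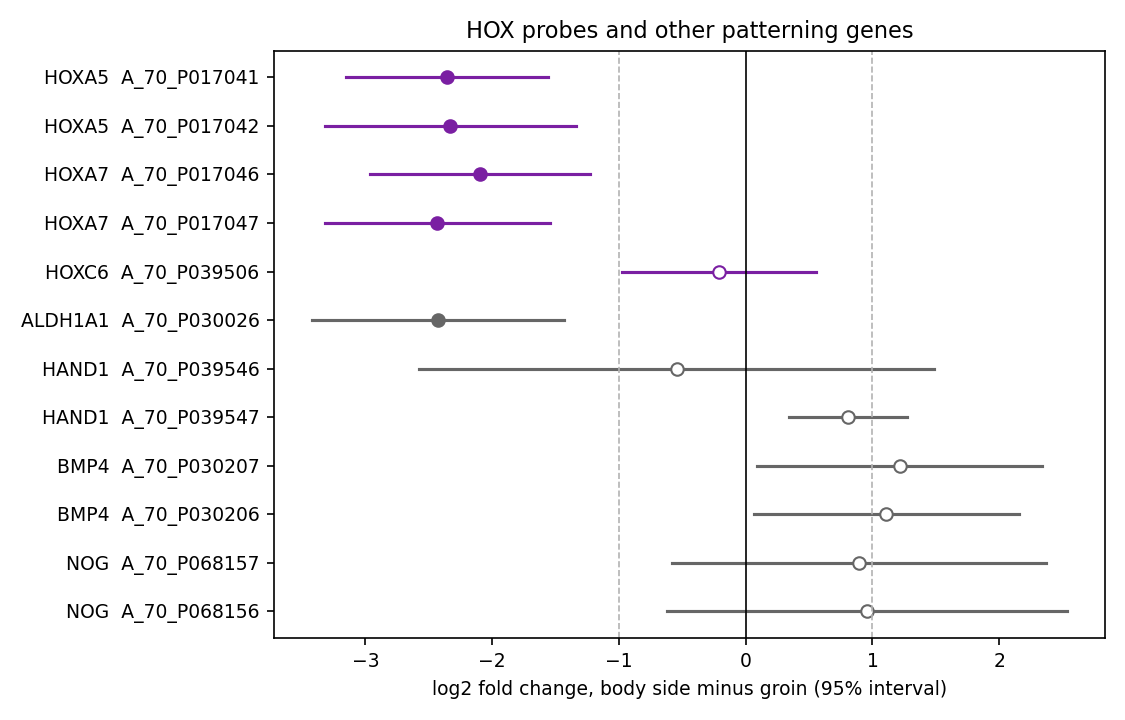
Log2 fold change, body side minus groin (horizontal axis), with its 95% interval from limma over 6 arrays, for the 5 HOX probes (purple) and the 7 probes of other patterning genes (grey). Filled points were called, open points were not, and dashed lines mark a fold change of 2. The HOXA5, HOXA7 and ALDH1A1 intervals lie below -1 and the HOXC6 interval spans 0.

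The contrast between HOXA and HOXC genes was set out on each array separately, since a difference between 2 genes on 1 array does not change when all log2 values of that array shift by 1 constant. Quantile normalization is not such a shift, so the changes are also given without it. The size of such a difference has no meaning of its own, because different probes bind with different strength, and only its change between areas was compared. HOXA5 minus HOXC6 was -5.36 ± 0.32 (log2, SD, n = 2) in groin skin and -7.57 ± 0.21 (SD, n = 3) in body side skin, a change of -2.21. As HOXA5 was not well above background on body side replicate 1, that change is a bound, and it was -2.18 with this array set at its lowest signal well above background. HOXA7 minus HOXC6 was -3.7 ± 1.05 (SD, n = 2) in groin skin and -6.0 ± 0.60 (SD, n = 3) in body side skin, a change of -2.30. Over 6 arrays the changes were -2.13 and -2.05 after normalization and -2.91 and -2.70 on the scanner signals before it. In both contrasts every groin array lay above every body side array, with and without normalization. An exact two-sided permutation test gave p = 0.2 for each of these contrasts, which is the smallest value that 2 samples against 3 allow, and p = 0.1, again the smallest possible, when the 6 arrays were counted separately. The HOXA probes were named from tables selected for a difference in these samples, while HOXC6, with 1 probe, was not. The separation was thus favoured by how the probes were found, and these p-values do not support the contrast.

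Between the HOXA genes no such change was seen. HOXA5 minus HOXA7 was -1.66 ± 0.73 (log2, SD, n = 2) in groin skin and -1.57 ± 0.72 (SD, n = 3) in body side skin, a change of 0.0932 (0.124 with HOXA5 at its bound) with overlapping areas (exact permutation with the smaller tail doubled, p = 1). With the 6 arrays counted separately the change was -0.0783 after normalization and -0.21 before it (first value, exact two-sided permutation p = 0.7). These were 3 contrasts, and none can reach 0.05 in this design before or after adjustment.

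**Figure D3:**
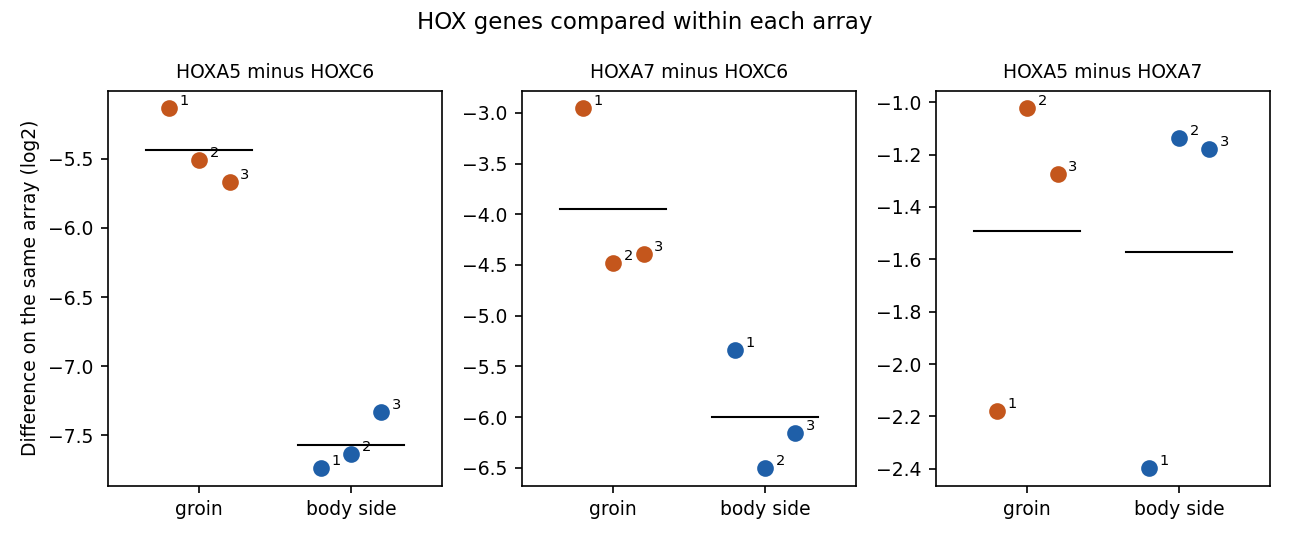
Difference in normalized log2 signal between 2 HOX genes on the same array (vertical axis, a separate scale in each panel), in groin skin (orange) and body side skin (blue), with the replicate number beside each point and black lines at the mean of the 3 arrays. Groin and body side arrays separate for HOXA5 minus HOXC6 and for HOXA7 minus HOXC6 and overlap for HOXA5 minus HOXA7.

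The arrays of an area did not vary alike for the 3 genes. Averaged over its probes, HOXA5 was at 3.92 on body side replicate 1, where it was not well above background, and at 5.19 and 5.16 on body side replicates 2 and 3. HOXC6 was likewise lowest on body side replicate 1, at 11.66, against 12.83 and 12.50 on the other two. HOXA7 did not share this step, with 6.32, 6.33 and 6.34 on the 3 body side arrays. In groin skin the pattern was the other way round. HOXA7 was at 9.41 on groin replicate 1 and at 8.12 and 8.25 on groin replicates 2 and 3. HOXA5, at 7.24, 7.10 and 6.97, and HOXC6, at 12.37, 12.60 and 12.64, varied little among the groin arrays. The spread of HOXA5 thus lay in body side skin and that of HOXA7 in groin skin, each between replicate 1 and the close pair of arrays.

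The position of an array on the slide was read from the spot positions and array labels in the scanner output, by which all arrays lie on 1 slide and in 1 scan. Both rows of that slide hold both areas, and only the third column does. Within row 1, with 1 body side and 2 groin arrays, the log2 differences were -2.03 and -1.80 for HOXA5, -2.40 and -2.61 for HOXA7 and 0.32 for HOXC6. Within row 2, with 2 body side arrays and 1 groin array, they were -2.46 and -2.64 for HOXA5, -1.57 and -2.0 for HOXA7 and -0.53 for HOXC6. Within column 3, with 1 array of each area, they were -3.05 for both HOXA5 probes, -1.65 and -2.20 for HOXA7 and -0.98 for HOXC6. The HOXA probes were lower in body side skin within both rows and the column, and HOXC6 changed sign. With slide row as a block the adjusted p from limma rose to between 0.0684 and 0.0731 for the 4 HOXA probes.

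**Figure D4:**
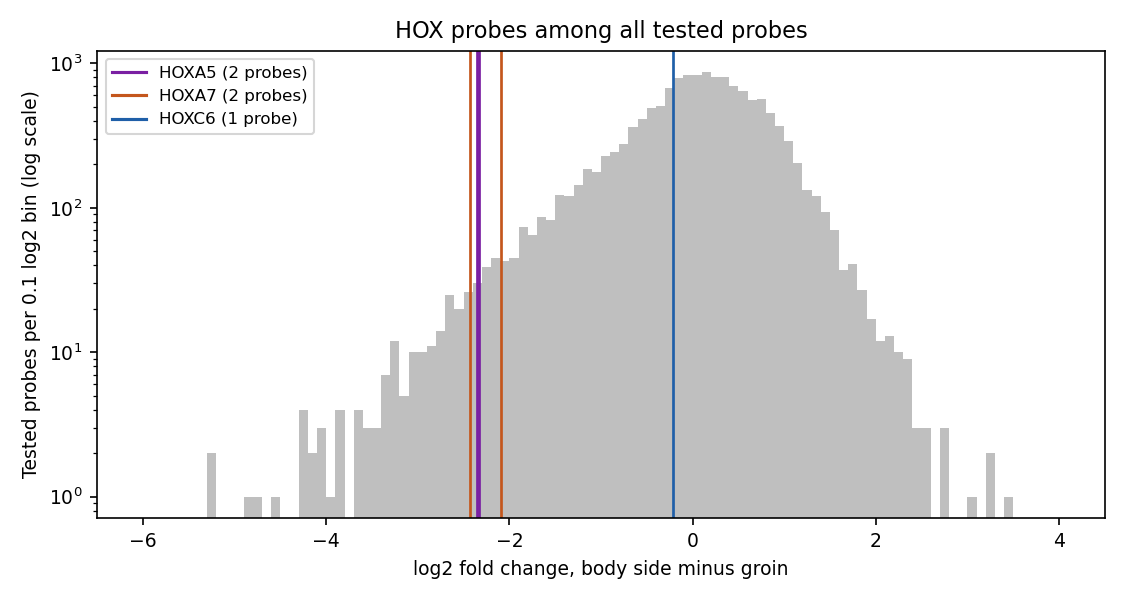
Number of tested probes (vertical axis, log scale) in bins of 0.1 of the log2 fold change, body side minus groin (horizontal axis), over 13929 probes in the fit over 6 arrays, with vertical lines at the HOXA5 (purple), HOXA7 (orange) and HOXC6 (blue) probes. The HOXA probes lie in the lower tail, with 1.15% to 2.04% of the tested probes below them, and HOXC6 has 32.7% below it. The HOXA probes were named from tables selected for a difference in these samples.

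The median log2 fold change of all tested probes was 0.0878, and the HOXC6 value of -0.21 and the HOXA values all lay below it. Counted from the lowest of the 13929 tested probes, the HOXA7 probes ranked 285 and 161 and HOXC6 ranked 4560. The HOXA5 probes ranked 187 and 194 by their fitted values and 191 and 202 at their bounds. With the 75th percentile scaling the median of all probes moved to -0.0294, and the HOXA probes ranged from -2.78 to -2.39. A normexp background correction, which adds an offset of 50 to the signals, gave -1.09 and -1.10 for HOXA5 and -1.45 and -1.65 for HOXA7, with the 4 probes still called over 6 arrays.

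**Figure D5:**
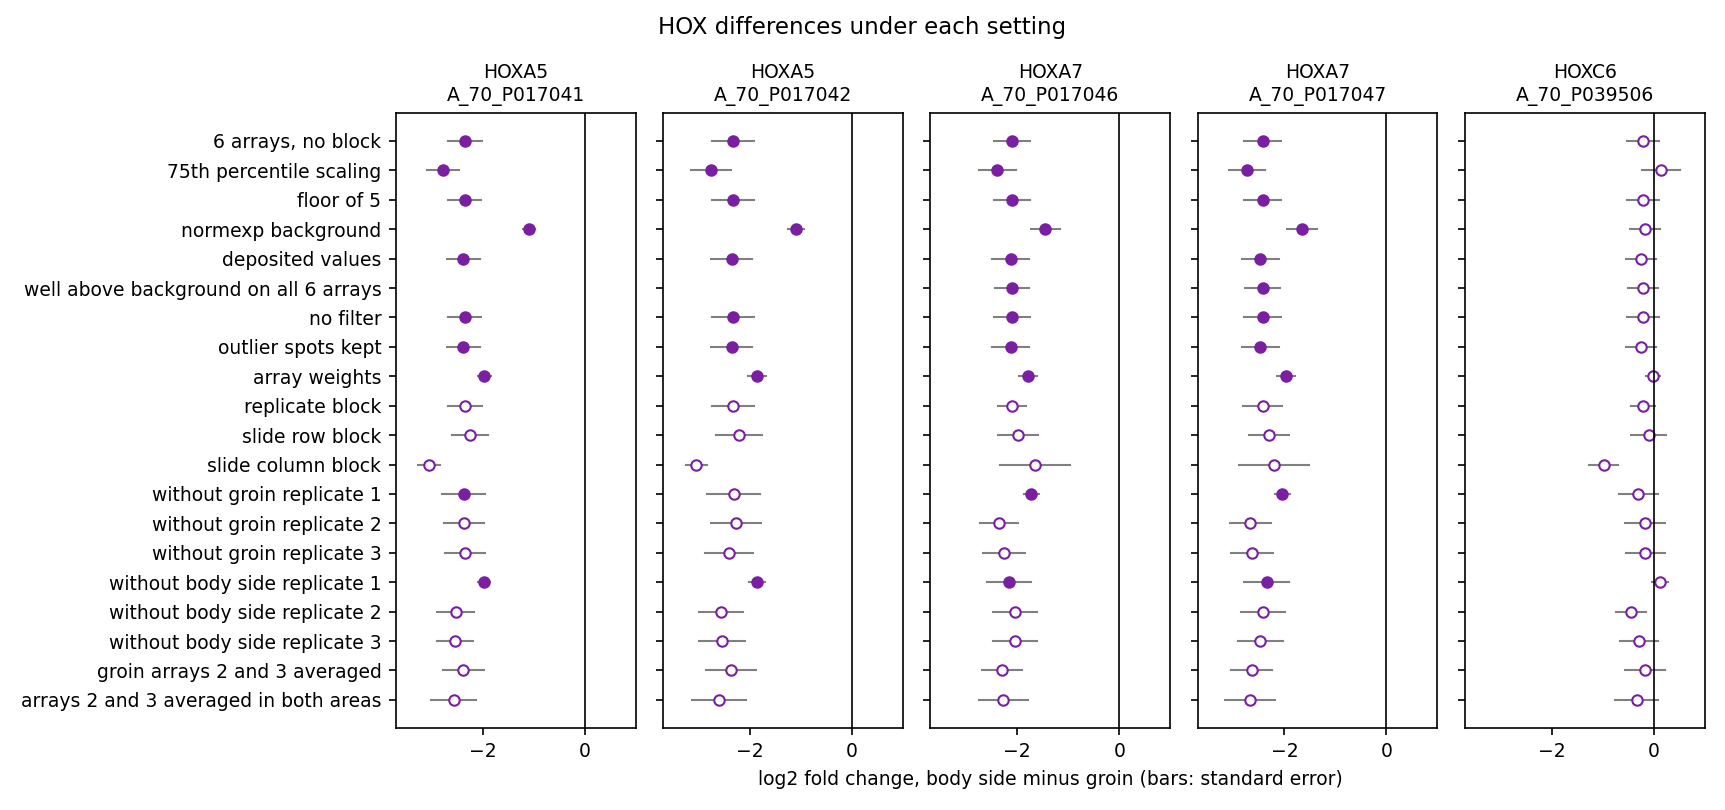
Log2 fold change, body side minus groin (horizontal axis), of each HOX probe under each processing setting (vertical axis), with bars of 1 standard error from limma. Filled points passed an adjusted p under 0.05 with a fold change of at least 2 and open points did not. All HOXA5 and HOXA7 points lie between -3.05 and -1.09, and HOXC6 lies on both sides of 0.

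The other parts of the HOX system were thinly covered by named probes. Of 39 HOX genes in a list of the 4 clusters, the 3 genes above were named, and HOXB and HOXD genes were not analysed here. Of 9 HOX cofactors, which are the PBX, MEIS and PKNOX proteins that bind DNA together with HOX proteins, 0 were named. Of 34 regulators of HOX clusters, among them enzymes and receptors of retinoic acid signalling and chromatin proteins, 1 was named, ALDH1A1, which makes retinoic acid from retinaldehyde. Its probe (A_70_P030026) had normalized log2 levels of 13.77, 13.27 and 13.28 in groin skin, against 10.12, 11.57 and 11.36 in body side skin. All groin arrays lay above all body side arrays, as for 17.9% of tested probes with a value on all arrays. Body side replicate 1 was again the lowest. The log2 fold change was -2.43 (SE 0.41, limma adjusted p = 0.0248) over 6 arrays and -2.51 (limma adjusted p = 0.104) with groin replicates 2 and 3 averaged.

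Of 50 other transcription factors of position, 1 was named, HAND1, a basic helix-loop-helix factor of heart and limb development. Its brighter probe (A_70_P039547) had log2 levels of 5.01, 5.41 and 4.95 in groin skin, against 5.73, 6.01 and 6.05 in body side skin. The body side arrays were the higher ones without overlap, with a log2 fold change of 0.81 (SE 0.19, limma adjusted p = 0.0431), under the fold change of 2 that a call needed. Such a separation was seen for 25.9% of tested probes with a value on all arrays. The other HAND1 probe was well above background on only 1 array of each area. Of 34 homeobox and patterning genes of the hair follicle, 2 were named, the growth factor BMP4 and its antagonist NOG, and 0 of their 4 probes were called. The BMP4 probes had log2 fold changes of 1.22 (SE 0.46, limma adjusted p = 0.113) and 1.11 (SE 0.43, limma adjusted p = 0.118). Of the 6 fits that left out 1 array, only 1 called them, the fit without body side replicate 1, at 1.70 and 1.52. That fit called 21.2% of its 13873 tested probes. The NOG probes had 0.90 and 0.96 (limma adjusted p = 0.324 and 0.323).

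The probes of named genes whose levels followed those of the HOX genes most closely over the 6 arrays were found by the root mean square of the difference between their profiles, each centred on its own mean, among 562 probes. For HOXA5 the nearest was ALDH1A1, with a root mean square of 0.128 on the log2 scale, followed by HSD11B1, which activates glucocorticoids, with 0.304, and a probe of GKN1, a gastrokine, with 0.367. For HOXA7 the nearest was LEPR, the leptin receptor, with 0.186, although LEPR was well above background on none of the 3 body side arrays, followed by both GKN1 probes, with 0.341 and 0.381. For HOXC6 the nearest were probes of TLR3, a receptor for double-stranded RNA, with 0.0912, and of the cytokine IL10, with 0.108. The HOXA5 and ALDH1A1 profiles share the gap between areas and the low body side replicate 1, and the HOXC6, TLR3 and IL10 profiles share the low body side replicate 1 without a gap. These are descriptions over 6 arrays of the same hybridization, and most probes carry no name here.

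Markers of other cell types were set beside the HOX values, as far as the array names them. DCN, the 1 named fibroblast marker of 14, had log2 fold changes of -0.46 and -0.23 and was not called. The summed signal of its 2 probes was 159100 to 181700 on body side arrays and 200400 to 232800 on groin arrays. The epidermal marker SFN, at 0.12, was not called. Of 9 hair follicle and shaft probes, 2 were called, both of the hair keratin K38 and higher in body side skin. The KRT35 probes, at 1.18 and 1.46, were not called, and a KRT25 probe was at -0.04. As outlier spots were left out, the KRT35 probes had no value on some body side arrays. The summed signal of this list is therefore not compared between areas. The smooth muscle marker CNN1, the 1 named gene of 5, was called lower in body side skin at -1.18, with 4506 to 7674 against 12410 to 15100 in groin skin.

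Of 3 tested adipocyte probes, 1 of LPL was called lower, although 0 of 3 body side arrays measured it well above background, and the summed signal was 4861 to 10030 against 7490 to 12330. Of the muscle and immune markers, 0 of 8 skeletal muscle probes and 0 of 8 tested immune probes were called, with summed signals of 151 to 219.4 and 5767 to 6442 on body side arrays against 147.8 to 174.4 and 4469 to 5806 on groin arrays. One of 6 tested gland probes, AQP5, was called higher in body side skin (sum 1072 to 1336 against 540 to 743), and the probes of the milk proteins CSN1S1 and CSN1S2 were not well above background on any array. Other milk protein probes were well above background on all 6 arrays and were not called. Of these, 1 of 2 CSN2 probes had log2 levels of 9.17 in body side and 8.23 in groin skin (means of 3 arrays), the CSN3 probe had 8.31 and 7.48, and 1 of 2 LALBA probes had 4.47 and 4.32. The other CSN2 probe was well above background on 0 arrays, so the CSN2 probes disagree. The other LALBA probe was well above background on 1 body side and 2 groin arrays. The areas did not overlap for these CSN2 and CSN3 probes, with body side arrays higher, and overlapped for this LALBA probe. Of the 13752 tested probes with a value on all arrays, 25.9% were separated in that direction. The probe of the red cell marker HBB was called higher in body side skin (135.6 to 285.4 against 27.83 to 92.71). One of 2 probes of the melanocyte marker TYR was also called higher there, and the sum of both was 237.7 to 309.7 against 60.64 to 82.42. The other TYR probe was lower in body side skin at -0.70 without overlap and was not called. It was well above background on only 1 groin array and 0 body side arrays. Endothelial markers were not named. The summed DCN signal and the CNN1 signal were lower in body side skin without overlap, as the HOXA genes were. Single probes were separated in this direction for 17.9% of the same 13752 probes. Each stands for its cell type by 1 gene. The DCN differences were 1.38-fold and 1.17-fold, and 1 of its 2 probes overlapped between areas. The part of fibroblasts and smooth muscle in the HOXA difference was not tested.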

How the data were processed

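The authors hybridised Cy3-labelled RNA to the Agilent sheep array, and deposited, per the file headers, the scanner's processed signal intensity of each spot (Agilent Feature Extraction 10.5.1.1, per the submitters' processing notes), already background corrected. They also deposited their own normalized log2 values, which were used as an alternative and lay close to quantile normalized values with a floor of 5. Here control and outlier spots were left out, the log2 intensity of each probe was the mean over its spots, and quantile normalization followed the authors' methods. Probes well above background on at least 1 of 6 arrays were tested with limma 3.58.1 (R 4.3.3), body side against groin, with Benjamini-Hochberg adjustment over all tested probes and no block. A call needed an adjusted p under 0.05 and a fold change of at least 2. Differences between genes were tested with an exact permutation test. The script was tested on simulated data. The number of arrays limits the precision.

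The array's files name no genes. The gene table named 734 probes by accession, and probes with no match are unnamed here. The named genes are the HOX members, all measured genes of the cofactor, regulator, positional and hair follicle patterning lists, the 5 probes nearest to each HOX gene in profile, of which the closest are printed, and marker lists. The members and lists were chosen with earlier results of these data known. Each animal gave both areas, but same-numbered arrays correlated in their deviations by only 0.133, 0.0734 and 0.0573, which does not settle whether the numbers mark animals, so no pairing was used. Averaging of close arrays and the contrasts between genes on 1 array were chosen after seeing the data. Alternatives changed the scaling, background, filter, outlier spots, array weights, blocks and each array left out. Comparison columns of the supplementary tables were not used.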

Additional observations from a re-analysis of the deposited data

How the results depend on the processing

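All 74 fits of the 4 HOXA probes under the alternatives tried kept the lower level in body side skin (log2 fold change from -3.05 to -1.09), and 37 of them kept the call. The 75th percentile scaling, floor, normexp correction, deposited values, missing filter, outlier spots and array weights kept all 4 calls over 6 arrays. The replicate number as a block, although the numbers were not shown to pair the arrays (same-numbered arrays correlated by 0.0573 to 0.133), left the log2 fold changes at -2.35, -2.33, -2.10 and -2.43 for the HOXA5 and HOXA7 probes in the order given above, with 0 HOX probes called (adjusted p from limma 0.0532 to 0.0583) and 8 probes called in all. Slide row as a block gave -2.25, -2.22, -1.99 and -2.31, with 0 HOX and 52 of all probes called. Slide column as a block, which rests on 1 array of each area, gave -3.05, -3.05, -1.65 and -2.20, with 0 HOX probes and 0 of all probes called by limma (1874 at an unadjusted p under 0.05). Averaging groin arrays 2 and 3 gave -2.38, -2.37, -2.30 and -2.64, with 0 HOX probes and 13 of all called, and averaging them in both areas gave -2.57, -2.60, -2.27 and -2.68, with 0 HOX probes and 0 of all called. In these 5 fits 0 of the cofactor, regulator and positional genes were called, against 1 over 6 arrays. Requiring all 6 arrays well above background took both HOXA5 probes out of the test and left 2 HOX calls. HOXC6 turned to 0.14 with the 75th percentile scaling. Over all probes, 1170 calls became 444 with normexp, 3338 with array weights (with 3 calls among the listed genes) and 2071 when no fold change was required.

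With 1 array left out at a time, the HOXA5 probes lay between -2.55 and -1.97 and between -2.57 and -1.86, the HOXA7 probes between -2.36 and -1.72 and between -2.67 and -2.04, and HOXC6 between -0.45 and 0.13, where it was above 0 without body side replicate 1. The number of HOX probes called ranged from 0 to 4, being 0 without groin replicate 2, groin replicate 3, body side replicate 2 or body side replicate 3, 3 when groin replicate 1 was left out and 4 when body side replicate 1 was. Calls over all probes ranged from 11 to 2939 and those among the listed genes from 0 to 3. Among the 18 other named probes, 13 of 336 values changed sign. NOG A_70_P068157 was at -0.0070 with normexp and NOG A_70_P068156 at -0.32 with slide column, where the BMP4 probes were at -0.019 and -0.031. HAND1 A_70_P039546 was at 0.36 with array weights and ranged from -1.18 (without body side replicate 2) to 0.22 (without groin replicate 1). The TLR3 probe A_70_P049626 was at 0.033 and LOC443344 at 0.041 with array weights. Over the arrays left out, the TLR3 probes ranged from -0.32 to 0.20 and from -0.37 to 0.11, the IL10 probes from -0.30 to 0.10 and from -0.27 to 0.15 and LOC443344 from -0.45 to 0.14, with the highest value always without body side replicate 1. The cause of these changes was not tested.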
